A study of Mus musculus with 4 samples.

Results

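The canonical Wnt ligands described here are 9 secreted signalling proteins (Wnt1, Wnt2, Wnt2b, Wnt3, Wnt3a, Wnt6, Wnt8a, Wnt9b and Wnt10a) that act mainly through beta-catenin. They were chosen by function, as every probe that is not a control and whose array accession maps to these symbols: 9 of the 20660 genes named on the array, read by 10 of its 55681 probes, 2 of them for Wnt1 and 1 for each other gene. Mouse EB5 embryonic stem (ES) cells, in which fluorescent Venus reports Hoxb6 (a trunk mesoderm homeobox gene), had been differentiated on OP9 stromal feeder cells for 6 days, and Flk-1+ cells were sorted by reporter signal. Flk-1, encoded by Kdr, is the VEGF receptor of mesoderm and its vascular and blood derivatives. The groups were the Flk-1+ Venus-negative and the Flk-1+ Venus-positive fraction, each on 2 single-colour arrays, and both came from the same reporter cells, feeder co-culture and day. Whether the reporter cells are a single clone and whether the duplicates are separate cultures is not stated in the labels, so each p-value reflects the spread among these 4 arrays alone, and that spread may be technical.

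Wnt ligands are lipid-modified glycoproteins that bind Frizzled receptors together with the co-receptors Lrp5 and Lrp6. Binding stops the destruction complex of Axin, Apc and Gsk3 from degrading beta-catenin, which then enters the nucleus and activates genes with TCF/LEF factors. In the mouse embryo this signal is needed to form the primitive streak, where mesoderm arises, and it acts again in tail-end mesoderm, kidney, lung, skin and neural tissue through different ligands.

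All 4 arrays lay on 1 slide, replicate 1 of both fractions in slide row 1 and replicate 2 in row 2, with the Venus-negative arrays in slide column 2 and the Venus-positive arrays in column 3, so slide column and fraction cannot be told apart. On each array 50.7% to 53.0% of the spots that are not controls were well above background, with 0 saturated spots. Precision is limited throughout by having 4 arrays. Kdr was bright in both fractions, at a scaled log2 signal (relative to the array's 75th percentile) of 5.97 and 5.78 in Venus-negative and 6.29 and 6.33 in Venus-positive cells, and all 8 markers of Flk-1+ mesoderm and endothelium were well above background on all arrays. Among them the endothelial receptor gene Tek rose (log2 change 1.52 ± 0.16 SE, limma adjusted p = 0.0487) and Pdgfra, a receptor of early mesoderm, fell (-1.94 ± 0.20 SE, adjusted p = 0.0457). The endothelial genes Pecam1 and Cdh5 had changes of 1.42 and 1.55 without passing (adjusted p = 0.0607 and 0.148). Etv2 and Tal1, of the same list, had changes the other way, of -1.51 and -0.21, also without passing (limma adjusted p = 0.0893 and 0.369). Of the 8 markers 3 had negative and 5 positive changes, where 49.3% of all genes tested were negative. The part of these markers in the ligand values was not tested. Hoxb6 was higher in both Venus-positive arrays (2.23 and 2.48) than in both Venus-negative arrays (1.48 and 1.21), although its limma adjusted p of 0.0779 missed 0.05.

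Among the canonical ligands, Wnt3, Wnt9b and Wnt10a fell in the Venus-positive cells, and 0 rose. Wnt3, the ligand needed to form the primitive streak, was 18.0-fold lower, Wnt9b, a kidney duct signal, was at least 5.86-fold lower, and Wnt10a, a ligand of skin and teeth, was 3.73-fold lower. Wnt6, Wnt8a and Wnt2 had lower values on both Venus-positive arrays without passing the threshold, Wnt2b was decided by a single array, the difference in Wnt1 was within its interval around 0, and Wnt3a was at background throughout. Of the 9 ligands 8 could be tested and 3 passed as lower in limma (adjusted p under 0.05, Benjamini-Hochberg), where 1.87% of all 13926 genes tested did so and 0.962% passed as higher. The median log2 change of the 8 was -1.85, against 0.0057 over all genes tested. Wnt2b, Wnt8a and Wnt9b entered the test only through their Venus-negative signal, which favours a difference, so the count and median describe the ligands that were measurable and give no support of their own; on all 4 arrays only 5 were well above background. In bulk RNA, fewer cells that make a ligand and less of it per cell cannot be told apart.

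**Figure D1:**
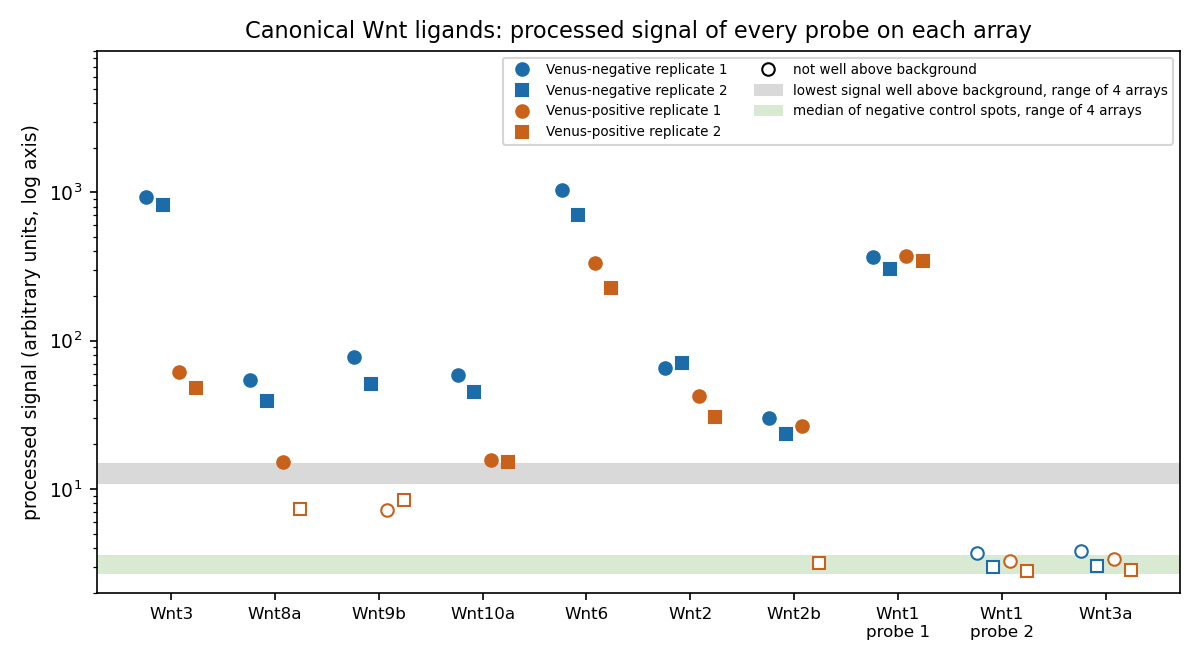
Processed signal (vertical log axis, arbitrary units) of all 10 probes of the canonical Wnt ligands, with a point for each array: circles for replicate 1, squares for replicate 2, blue for Venus-negative and orange for Venus-positive cells. Open points were not well above background. Wnt3 runs from 926 and 822 down to 61.8 and 48.1, whereas the bright Wnt1 probe stays between 303 and 374 on all arrays. Signals of different probes are not comparable with each other.

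Wnt3 is the ligand without which the mouse embryo forms no streak. Its processed signal was 926 and 822 in Venus-negative cells and 61.8 and 48.1 in Venus-positive cells. The fractions lay far apart compared with the spread within each, and all 4 values were well above background. On the scaled log2 axis the means were 1.48 ± 0.0038 (SD, n = 2) and -2.69 ± 0.17 (SD, n = 2), a log2 change of -4.17 ± 0.13 SE with a 95% interval of -4.53 to -3.80 (limma adjusted p = 0.0262). The difference was -4.05 between the replicate 1 arrays and -4.28 between the replicate 2 arrays. Among 13926 genes tested, Wnt3 stood at rank 6 by p-value and at rank 23 by size of decrease.

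Wnt8a, a ligand of the posterior epiblast and streak, had processed signals of 54.7 and 39.3 in Venus-negative and 15.2 and 7.36 in Venus-positive cells. Both Venus-positive values lay below both Venus-negative values, and the lower of them was not well above background. Its log2 change of -2.30 ± 0.37 SE (95% interval -3.34 to -1.25) had an adjusted p of 0.0775 in limma. With model-based background correction (normexp), which adds an offset to dim signals, the change was -0.62 and passed (adjusted p = 0.0378). Wnt3a, the ligand that maintains presomitic mesoderm, was not well above background on any array. Its signals of 3.82, 3.01, 3.37 and 2.84 in the order of the arrays above lay close to the medians of the negative control spots (3.56, 2.85, 3.17 and 2.72) and under their 95th percentiles (4.03, 3.25, 3.64 and 3.14). A signal at this level gives no fold, since after scaling the background itself lay lower on the Venus-positive arrays.

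Wnt9b, which comes from the Wolffian duct and induces kidney tubules, had signals of 77.6 and 50.7 in Venus-negative cells and of 7.20 and 8.46 in Venus-positive cells. Neither Venus-positive value was well above background, a pattern shared by 0.934% of the genes tested, so the fold is a lower bound, taken against the lowest signal well above background on each of those arrays (13.1 and 11.1). Wnt9b was at least 5.86-fold lower, at least 2.55 on the log2 scale. The limma adjusted p of 0.0352 belongs to the measured log2 change of -3.17 ± 0.23 SE, and the bound itself was not tested. The measured scaled log2 means were -2.32 ± 0.32 (SD, n = 2) and -5.49 ± 0.25 (SD, n = 2). With normexp its log2 change shrank to -0.84 and still passed (adjusted p = 0.0330).

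Wnt9b and Wnt3 are next to each other on chromosome 11 in the RefSeq gene order and point away from each other, with start sites 24354 bases apart in GRCm38.p6. The 250 bases before each start, from RefSeq in build GRCm38.p6, are shown because both genes fell; capitals mark CCAAT, found on either strand.

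Wnt3, chr11:103773925-103774174, plus strand: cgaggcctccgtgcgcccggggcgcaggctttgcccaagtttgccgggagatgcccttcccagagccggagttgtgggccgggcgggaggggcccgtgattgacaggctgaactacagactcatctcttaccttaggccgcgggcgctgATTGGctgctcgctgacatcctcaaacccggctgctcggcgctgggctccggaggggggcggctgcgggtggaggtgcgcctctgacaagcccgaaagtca
Wnt9b, chr11:103749822-103750071, minus strand: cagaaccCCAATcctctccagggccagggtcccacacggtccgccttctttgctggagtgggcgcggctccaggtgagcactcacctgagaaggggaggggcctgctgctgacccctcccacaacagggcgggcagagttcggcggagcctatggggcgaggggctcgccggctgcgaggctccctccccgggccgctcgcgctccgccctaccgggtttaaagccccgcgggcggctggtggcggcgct

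Both stretches are rich in CG dinucleotides, with 22 each, against a median of 6 over 32851 promoter stretches of the same length. Each holds 1 CCAAT motif, which 33.8% of all stretches hold on either strand, at 101 bases before the start in Wnt3 and at 243 in Wnt9b. The GC box GGGCGG was found 2 times in Wnt3 and 3 times in Wnt9b, and 32.7% of all stretches hold at least 1. The core letters bound by TCF/LEF factors, CTTTGA, and by T-box factors, AGGTGT, were in neither stretch on either strand, where 13.8% and 11.8% of all stretches hold them. The same 2 motifs were also searched in the promoters of Wnt1, Wnt2, Wnt2b, Wnt3a and Wnt6, and only Wnt2b held a match, 1 of AGGTGT. A match or its lack describes these letters in this window only, and 7 of the 9 ligands had an entry.

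The protein-coding genes on the outer sides of this pair did not pass the threshold. Gosr2, a Golgi transport protein beside Wnt9b, had a log2 change of -0.15 ± 0.11 SE (limma adjusted p = 0.457), and Nsf, a membrane fusion ATPase beside Wnt3, had -0.08 ± 0.12 SE (adjusted p = 0.747), which turned to 0.0029 when arrays were scaled to their medians. Wnt6 and Wnt10a form a second neighbouring pair, on chromosome 1, and both had lower values in the Venus-positive cells. The genes on either side of that pair, Prkag3 and Cdk5r2, were too dim to be tested.

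**Figure D2:**
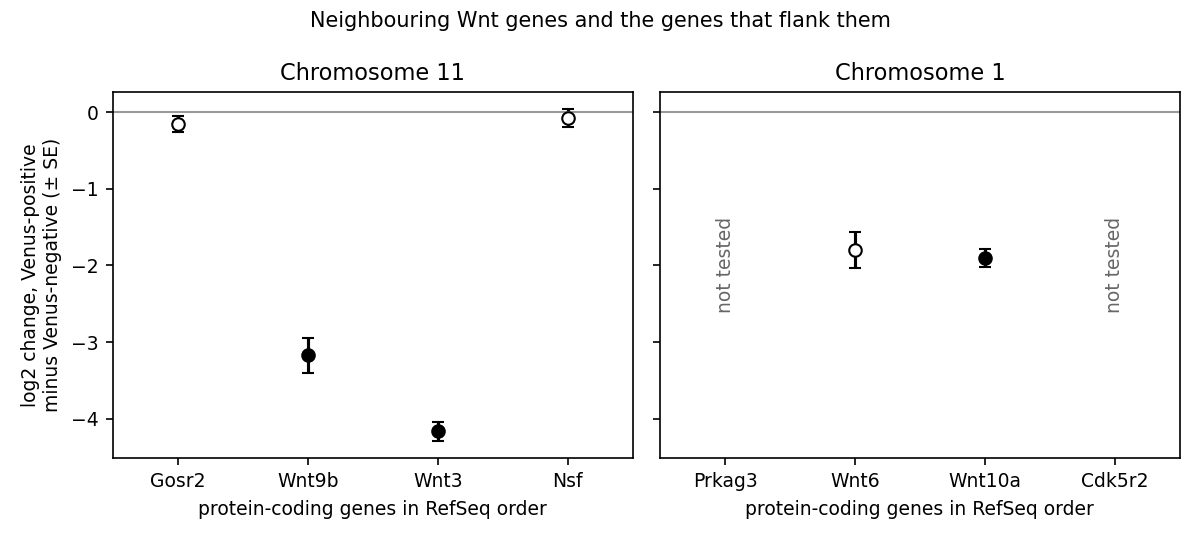
Log2 change between Venus-positive and Venus-negative cells (vertical axis, points with ± moderated SE) for neighbouring Wnt genes and the protein-coding genes that flank them, in RefSeq order and not to scale. Filled points passed an adjusted p under 0.05. Wnt9b (measured value -3.17, a dim gene with a bound of 2.55) and Wnt3 (-4.17) lie between Gosr2 (-0.15) and Nsf (-0.08); Wnt6 and Wnt10a stand at -1.80 and -1.90.

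Wnt10a, known from hair follicles and teeth, had signals of 58.5 and 45.2 in Venus-negative and of 15.7 and 15.2 in Venus-positive cells. All 4 values were well above background, but the Venus-positive ones lay near the lowest signals to pass that criterion. The scaled log2 means were -2.61 ± 0.15 and -4.51 ± 0.049 (SD, n = 2 each), and the log2 change was -1.90 ± 0.12 SE (95% interval -2.25 to -1.56, limma adjusted p = 0.0341). With normexp the change was -0.63 (adjusted p = 0.0330).

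Wnt6, which is made in surface ectoderm and acts on somite and kidney epithelium, had signals of 1032 and 698 in Venus-negative cells and of 332 and 226 in Venus-positive cells. The fractions did not overlap and the values within each differed by a similar factor, the replicate 1 array being the brighter of the pair in both. Scaled log2 means were 1.44 ± 0.28 and -0.36 ± 0.31 (SD, n = 2 each), and the log2 change of -1.80 ± 0.23 SE (95% interval -2.46 to -1.14) missed the threshold (limma adjusted p = 0.0604). It passed at adjusted p-values of 0.0293 with normexp, 0.0418 with median scaling and 0.0223 with a signal-dependent variance prior. The differences within replicate 1 and within replicate 2 were -1.78 and -1.82.

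Wnt2 and Wnt2b, a closely related pair that specifies the lung, did not pass. Wnt2 read 65.4 and 70.6 in Venus-negative and 42.7 and 30.4 in Venus-positive cells, without overlap. Its log2 change was -1.08 ± 0.19 SE (95% interval -1.62 to -0.54, limma adjusted p = 0.0871), and -0.49 with normexp (adjusted p = 0.0686). Wnt2b read 30.1 and 23.5 in Venus-negative cells, and 26.8 and 3.20 in Venus-positive cells, the last value being not well above background. Its log2 change of -1.69 ± 1.08 SE (adjusted p = 0.416) rests on that array: it was -0.22 when Venus-positive replicate 2 was left out, and -3.16 when replicate 1 of that fraction was.

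Wnt1, a ligand of the midbrain and dorsal neural tube, was read by a pair of probes for the same transcript that disagreed on detection. The bright probe gave 364 and 303 in Venus-negative and 374 and 347 in Venus-positive cells, with a log2 change of -0.05 ± 0.10 SE (95% interval -0.33 to 0.23, limma adjusted p = 0.793), which became 0.028 when arrays were scaled to their medians. The other probe gave 3.71, 2.98, 3.27 and 2.80, close to the negative controls on all arrays. Which of the probes follows the Wnt1 transcript was not tested, so the level of Wnt1 is uncertain.

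**Figure D3:**
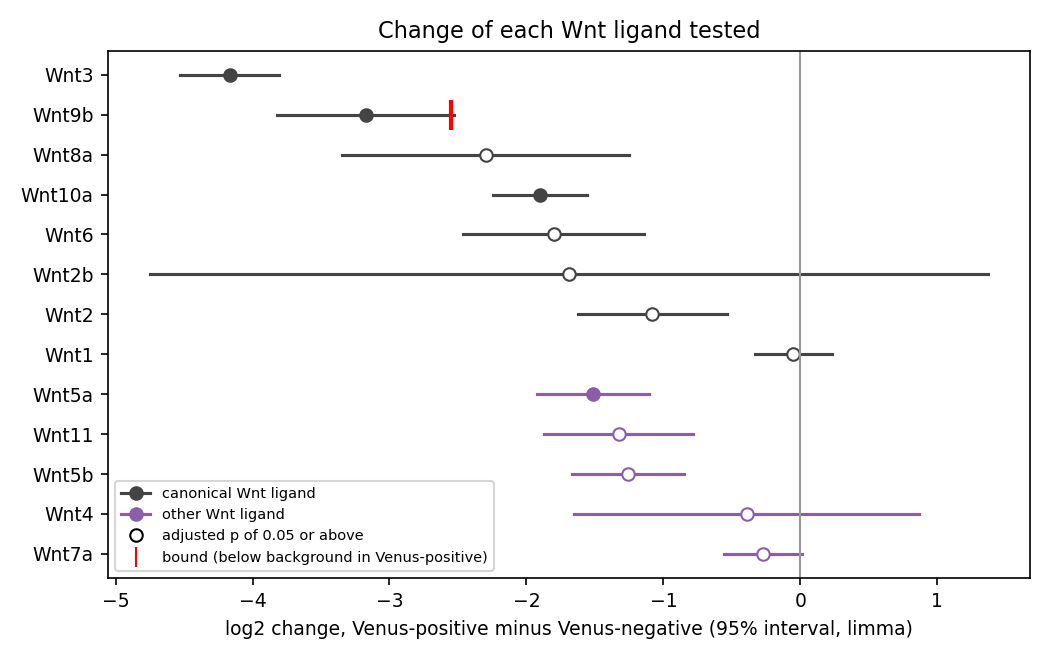
Log2 change (horizontal axis, Venus-positive minus Venus-negative) with the 95% interval from limma for the 8 canonical and 5 other Wnt ligands tested. Filled points passed an adjusted p under 0.05, and the red tick marks the bound of Wnt9b at 2.55 below 0. Wnt3 lies lowest at -4.17, the interval of Wnt1 spans 0 and that of Wnt2b reaches from -4.75 to 1.37.

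Of the 8 ligands tested, 7 had both Venus-positive arrays below both Venus-negative arrays after scaling, which 30.0% of all genes tested also had, and 6 were lower at an unadjusted p under 0.05, as were 12.2% of all genes. The opposite patterns, held by 0 of the 8 ligands, occurred in 31.2% and 13.6% of all genes. For Wnt2b that separation exists only after scaling, since its unscaled values interleave. Wnt2b, Wnt8a and Wnt9b entered the test only through their Venus-negative signal, which favours lower Venus-positive values, so these counts give no support of their own. Among the 5 ligands well above background on all 4 arrays, Wnt3, Wnt10a, Wnt6 and Wnt2 had the separation and Wnt1 overlapped. The 3 calls were made at adjusted p-values of 0.0262 to 0.0352, close to the threshold. Without any 1 of the 4 arrays, or with dim probes kept in the test, 0 genes on the array passed in limma (smallest adjusted p between 0.128 and 0.164, and 0.141). At an unadjusted p under 0.05, 1053 to 1431 genes were then higher and 1142 to 1390 lower when an array was left out; keeping dim probes gave 1660 and 1829. Without an array, log2 changes ranged from -4.29 to -4.05 for Wnt3 and from -3.40 to -2.95 for the measured value of Wnt9b.

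**Figure D4:**
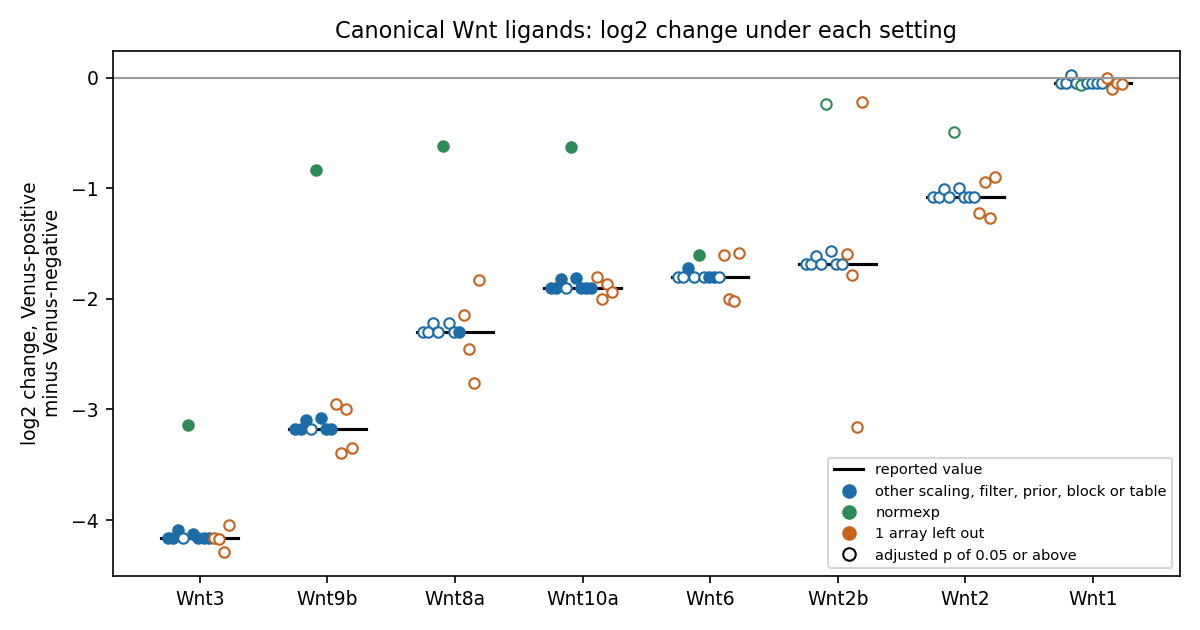
Log2 change (vertical axis) of the 8 tested canonical Wnt ligands under the reported setting (black lines) and each alternative: other scalings, filters, variance prior, replicate block and the authors' value table in blue, normexp in green and 1 array left out in orange. Filled points passed an adjusted p under 0.05. Wnt3 moves between -4.29 and -3.15, whereas the dim ligands Wnt9b, Wnt8a and Wnt10a shrink to between -0.84 and -0.62 with normexp.

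The genes whose values over the 4 arrays were most like those of a called ligand were found by the root mean square difference of log2 signal after subtracting each gene's mean. For Wnt3, among 12747 named genes well above background on all arrays, these were Dll3, a Notch ligand of the presomitic mesoderm (0.182), Pdlim3, a muscle actinin-binding protein (0.214), Ptgds, a prostaglandin D synthase (0.225), Lhx1, a homeobox gene of the streak organizer and kidney (0.262), and Lmo1, a LIM-only transcription regulator (0.276). Their log2 changes lay between -4.65 (Lhx1) and -3.62 (Lmo1). For Wnt10a the nearest were Usp51, Plbd1, Lrig3, Pdgfrl and Gdf1, at 0.0665 to 0.0825. For Wnt9b, among 13380 named genes that passed the filter, they were Slc45a1, Loxl4, Cd28, Nsg2 and Slc5a2, at 0.111 to 0.188. The 4 arrays hold a single contrast, so likeness here is mostly likeness in the difference between the fractions.

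The other 10 Wnt ligands act mainly without beta-catenin or in other tissues. Of 5 tested, Wnt5a, a ligand of cell movement and tail-end growth, fell (log2 change -1.52 ± 0.14 SE, limma adjusted p = 0.0418) and 0 rose. Its scaled log2 signals were 2.09 and 2.37 in Venus-negative and 0.77 and 0.65 in Venus-positive cells. With the replicate number as a block Wnt5a missed the threshold (adjusted p = 0.0535). The relatives Wnt5b and Wnt11, named after their values were seen, had log2 changes of -1.26 ± 0.14 and -1.33 ± 0.19 SE with adjusted p-values of 0.0524 and 0.0673. The list's median was -1.26, and 1 of 5 tested genes passing compares with 2.83% of all genes passing in either direction.

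On the receiving side the changes went both ways. Of 15 tested receptors and co-receptors, Fzd7, a Frizzled receptor of pluripotent and early mesodermal cells, fell (log2 change -1.47 ± 0.15 SE, adjusted p = 0.0444 in limma) and Fzd6 rose (1.80 ± 0.14 SE, adjusted p = 0.0362). Fzd6 was dim, at scaled log2 signals of -3.97 and -3.75 in Venus-negative and -2.14 and -1.98 in Venus-positive cells, and its change was 0.77 with normexp. The co-receptors Lrp5 and Lrp6 had log2 changes of 0.37 ± 0.10 and -0.10 ± 0.11 SE and did not pass (limma adjusted p = 0.142 and 0.647). The receptor list had a median of -0.10, with 10 of 15 values negative, where 49.3% of all genes were negative. Over all genes tested, 1.87% passed as lower and 0.962% as higher.

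Each list of genes that handle or limit the ligands held 1 called decrease, where 1.87% of all genes tested passed as lower. Of 10 tested genes of secretion and release, Gpc3, a cell-surface proteoglycan, fell by 2.10 ± 0.12 SE on the log2 scale (limma adjusted p = 0.0341). Porcn and Wls, which acylate Wnt proteins and carry them to the surface, did not pass. Their log2 changes were -0.29 ± 0.10 and -0.39 ± 0.11 SE (limma adjusted p = 0.216 and 0.151). Of 7 tested R-spondins and their receptors, Rspo3, a secreted enhancer of Wnt signalling, fell (-1.56 ± 0.13 SE, adjusted p = 0.0395). Of 10 tested antagonists, not all of them secreted, Frzb, which binds Wnt proteins outside the cell, fell 8.03-fold (-3.00 ± 0.25 SE, limma adjusted p = 0.0386). With normexp it fell by 1.49 on the log2 scale. Apcdd1, a membrane inhibitor of Wnt named after its values were seen, had a change the other way (1.11 ± 0.15 SE, adjusted p = 0.0629). With normexp, median scaling, the signal-dependent prior and the replicate block, 1 antagonist passed as higher. The replicate block also gave 2 antagonists called lower. The summed signal of the antagonists, in units of each array's 75th percentile, was 25.5 and 25.2 in Venus-negative and 39.3 and 32.9 in Venus-positive cells. Its largest term was the membrane inhibitor Apcdd1, at scaled log2 signals of 3.65 and 3.48 against 4.81 and 4.53, so the sum does not describe secreted antagonists alone. Of the 10 antagonists tested 7 had negative and 3 positive changes. At an unadjusted p under 0.05, 5 of 10 were lower and 2 higher, where 12.2% and 13.6% of all genes were. The medians of these lists were -0.34, -0.05 and -0.38.

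Inside the cell 0 genes passed in limma. Of 16 tested genes of the destruction complex and its Dishevelled partners, 2 were lower and 1 was higher at an unadjusted p under 0.05, where 12.2% and 13.6% of all genes were, and the median log2 change was 0.07. The largest value was that of Amer2, an Apc-binding membrane protein (-2.22 ± 0.28 SE, adjusted p = 0.0592), which passed with normexp, median scaling and the signal-dependent prior. Axin2, both a member of the complex and a common readout of beta-catenin activity, had a log2 change of -0.45 ± 0.20 SE (95% interval -1.02 to 0.11, adjusted p = 0.278). Of 13 tested TCF/LEF factors and partners, 1 was lower and 0 higher at an unadjusted p under 0.05, with a median of 0.02. The largest changes there were those of the co-repressor Tle3 (-0.74 ± 0.14 SE, adjusted p = 0.0908) and of Bcl9l, a beta-catenin co-activator (0.30 ± 0.14 SE, adjusted p = 0.307).

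Transcripts known to respond to beta-catenin in gastrulating mesoderm had mixed signs. Of 20 tested, Msgn1, a regulator of presomitic mesoderm, fell 10.4-fold (log2 change -3.38 ± 0.25 SE, adjusted p = 0.0362 in limma, -1.89 with normexp) and 0 rose, with 13 of 20 values negative and a median of -0.36. Over all genes tested, 1.87% passed as lower, 0.962% passed as higher and 49.3% had negative values. At an unadjusted p under 0.05, 7 of the 20 were lower and 0 higher, where 12.2% and 13.6% of all genes were. Fgf8 and Tbx6, a growth factor and a T-box factor of presomitic mesoderm, had changes of -3.04 ± 0.41 and -2.93 ± 0.43 SE and missed the threshold (adjusted p = 0.0629 and 0.0682). Lef1 and Sp5, named like Fgf8 and Tbx6 after their values were seen, had changes of -0.03 ± 0.24 SE (95% interval -0.70 to 0.64) and -0.69 ± 0.35 SE (95% interval -1.68 to 0.30). The intervals of Lef1 and Sp5 do not show that they were alike in both fractions.

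**Figure D5:**
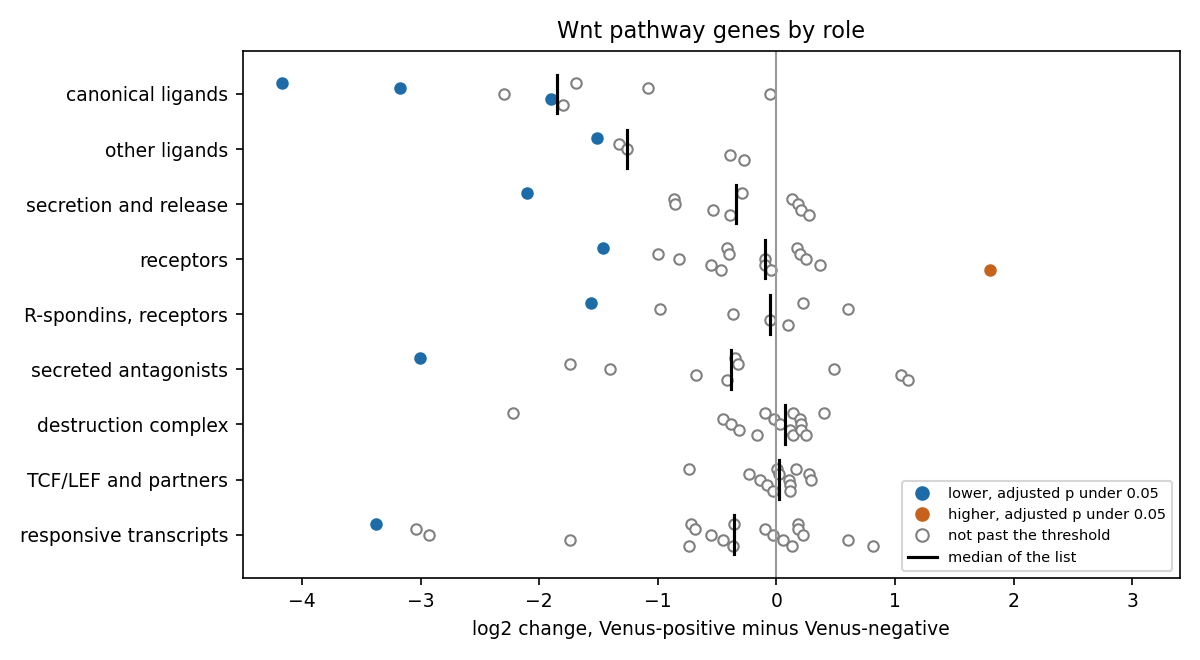
Log2 change (horizontal axis, Venus-positive minus Venus-negative) of every tested gene of 9 Wnt pathway lists, a point for each gene and a black line at each list's median. Blue points were lower and orange points higher at an adjusted p under 0.05. Canonical ligands have a median of -1.85 and other ligands of -1.26, whereas the medians of the destruction complex and the TCF/LEF list are 0.07 and 0.02.

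Marker lists of other cell states differed in how they compared between the fractions. Of 8 primitive streak markers Mesp1, Gsc, Mixl1, Eomes and Nodal were lower past the threshold, where 1.87% of all genes were, and 8 of 8 values were negative, where 49.3% of all genes were, 2 of the 8 (Fgf8 and T) shared with the responsive transcripts; their summed signal, in units of each array's 75th percentile, was 97.7 and 75.9 in Venus-negative and 38.8 and 22.8 in Venus-positive cells. The sum of 10 surface ectoderm and epithelial markers was 39.5 and 46.0 against 17.6 and 19.0, with Krt5 and Krt15 below the filter and Krt8 called lower. Its largest term was Krt18, at a log2 change of -1.29 (limma adjusted p = 0.0669). Of 8 tested, 5 had negative changes, and Tfap2a, Krt14 and Grhl3 had positive ones of 0.72, 0.19 and 0.02. At an unadjusted p under 0.05, 4 were lower and 1 higher, where 12.2% and 13.6% of all genes were. The sum of 12 OP9 stromal markers was 91.4 and 84.3 against 74.9 and 55.0, with 0 of 11 tested genes passing in limma (1 lower at an unadjusted p under 0.05), and that of 10 neural markers was 14.3 and 12.2 against 10.8 and 12.8, with Pax6, Neurog1 and Neurog2 below the filter. Of the 7 neural markers tested Tubb3 was called lower (-2.62 ± 0.27 SE, adjusted p = 0.0460), Otx2 stood at -3.42 (adjusted p = 0.0554), and Nes, Pax3 and Sox3 had positive changes of 0.88, 0.93 and 0.54 that did not pass. The sum of 7 undifferentiated ES markers was 23.5 and 19.3 against 23.7 and 17.4, with Tdgf1 called lower. Its largest term was Klf4, with a positive log2 change of 0.50 (limma adjusted p = 0.255). Pou5f1 stood at -2.39 (adjusted p = 0.0667). Of the 7 markers 5 had negative and 2 positive changes, and 2 were lower and 0 higher at an unadjusted p under 0.05. The sum of 6 cardiac markers was 2.57 and 1.72 against 0.860 and 0.362, with Myl7 called lower (measured log2 change -6.03, limma adjusted p = 0.0401). Myl7 was below background in Venus-positive cells, and its bound of at least 30.0-fold lower was not tested. Of 5 cardiac markers tested 4 had negative changes, and Tnnt2 had a positive one of 0.88 (limma adjusted p = 0.524). At an unadjusted p under 0.05, 2 of the 5 were lower and 0 higher, where 12.2% and 13.6% of all genes were. The sum of 6 endoderm markers ran the other way, at 3.90 and 5.10 against 8.59 and 11.1, with 0 of 3 tested genes passing in limma (2 lower and 1 higher, Sox17, at an unadjusted p under 0.05). Sox17 was the largest term of that sum, with a log2 change of 1.34 (adjusted p = 0.0869). Foxa2 and Foxa1 had changes of -1.19 and -0.53 (adjusted p = 0.126 and 0.133), so the higher sum does not hold for each endoderm marker. The sum of 8 blood markers was 62.4 and 129 against 56.1 and 68.0, with 0 of 7 passing (1 lower at an unadjusted p under 0.05). The part of any of these cell states in the lower ligand signals was not tested.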

How the data were processed

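Gene expression was measured on 4 Agilent single-colour arrays. The deposited scanner tables hold the intensity of each spot, produced by Agilent's Feature Extraction software (version 10.10.1.1), background-subtracted and detrended within each array, per the file headers; well-above-background and outlier flags come from the same files. The values the authors deposited for the series equal that intensity multiplied by a constant for each array (2.15, 2.44, 1.98 and 2.11), linear and uncentred; column medians were 41.0, 42.3, 41.0 and 38.1. Accessions were matched to symbols through RefSeq's genes of GRCm38.p6: 27235 probes had a single symbol and 28446 had none.

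Control and outlier spots were left out. Each array's 75th percentile over probes (331, 295, 366 and 337) was subtracted from its processed signals after log2, spots of a probe were averaged, and 27901 probes were kept whose spots were well above background in both replicates of either fraction (2 lost to outlier spots). The probe with the highest mean signal represented a gene, giving 13926 genes and 9622 unnamed probes. The fractions were compared with limma 3.58.1 (R 4.3.3, data.table version 1.17.8; lmFit, eBayes, no covariate) with Benjamini-Hochberg adjustment over all these features and a threshold of 0.05, with 2 residual and 1.8 prior degrees of freedom; the fit was tested on simulated data. SE is moderated. The alternative normexp (offset 50, then quantile normalization) used gMedianSignal, as the tables carry no gMeanSignal column. Named pathway genes are those past the threshold or, failing that, the 2 largest changes of a list, and for each called ligand the 5 most similar genes. Other pathway genes, among them Porcn, Wls, Lrp5 and Lrp6, were named outside this rule. The ligands and all lists were chosen with earlier results of these data known.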

Additional observations from a re-analysis of the deposited data

How the results depend on the processing

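Under the 9 alternatives that use all 4 arrays, the number of canonical ligands called lower was 5 with normexp, 5 with the signal-dependent prior, 4 with median scaling, 4 with the replicate block, 2 when only probes bright on all 4 arrays were kept (Wnt9b was then not tested), 0 with no filter on dim probes and 3 with the others; 0 were called higher throughout. All genes called higher (134) became 433 with normexp, 284 with median scaling, 554 with the signal-dependent prior, 234 with the replicate block and 0 with no filter; those called lower (260) became 504 with normexp, 660 with the signal-dependent prior and 0 with no filter. Without 1 array, all 3 counts ranged from 0 to 0; the fit then has less residual freedom, and a lone array is assumed to vary like the other fraction. The share of called genes that were lower was 66.0%, against 54.2% with median scaling, which moved the median of all genes to 0.08, and 53.8% with normexp.

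Values near 0 changed sign: Wnt1 to 0.028 and Nsf to 0.0029 with median scaling, and Fam13b, beside Wnt8a, to -0.074 with normexp. Leaving out 1 array gave -0.17 to 0.020 for Nsf and -0.13 to 0.15 for Fam13b. The cause was not tested. The replicate numbers share only a number in the labels, and coincide with the slide row; deviations of same-numbered arrays correlated at 0.414. With the replicate block 234 genes were higher and 373 lower, the same 3 ligands passed, Wnt6 passed too (adjusted p = 0.0447) and Wnt5a no longer did (0.0535). Signal over background limits Wnt9b, Wnt8a, Wnt2b and Wnt3a.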
